A study of Arabidopsis thaliana with 64 samples.

Results

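The 10 genes described here organise the shoot apical meristem and the boundaries around it in *Arabidopsis thaliana*: the class I KNOX genes STM, KNAT1, KNAT2 and KNAT6, the CLAVATA-WUSCHEL genes CLV1, CLV3 and WUS, and the boundary genes CUC1, CUC2 and CUC3. They were chosen by name, and all 10 were found among the 33321 gene rows of the count tables. RNA sequencing libraries had been made from 2 inbred parents, C24 and Landsberg erecta (Ler, named for its erecta allele), their reciprocal F1 hybrids (C24xLer and LerxC24), 8 F4 lines called hybrid mimics in the protocols (L1-1, L1-2, L2-1, L2-2, L3-1, L3-2, L4-1 and L4-2) and 2 further F4 lines (S1-1 and S2-1). No group received a treatment. The 36 libraries at 15 days after sowing (DAS) were of whole aerial tissue of seedlings on plates, and the 28 libraries at 28 DAS were of the 4 largest leaves of plants moved to soil at 18 DAS. Each of the 32 groups had 2 libraries, each from a pool of 5 plants, so that the tests measure the spread between pools. Batch 1 held C24 and Ler pools A and B, C24xLer and the lines L1 and L2, and batch 2 held C24 and Ler pools C and D, LerxC24 and the lines L3 and L4, grown under different light tubes. The S lines and the 5 smallest of 50 C24 or Ler seedlings were sampled at 15 DAS only, and the S lines were given no batch.

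Class I KNOX homeodomain proteins keep cells of the meristem undifferentiated and are shut off where a leaf starts to form. Inside the meristem the homeodomain protein WUS is made in the organising centre and maintains the stem cells above it, which secrete the CLV3 peptide. CLV3 acts through receptors that include the kinase CLV1 to restrict WUS. The NAC proteins CUC1, CUC2 and CUC3 hold growth back at the borders between meristem and organs, and CUC2 also shapes the teeth of the leaf margin. The microRNA miR164 cuts CUC1 and CUC2 transcripts, while CUC3 is known to escape it.

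The miR164 sequences and their sites are shown because they separate the boundary genes. In the TAIR10.1 assembly of RefSeq, ath-miR164a lies at chr2:19520770-19520790 (+), ath-miR164b-5p, with the same mature sequence, at chr5:287586-287606 (+) and ath-miR164c-5p at chr5:9852684-9852704 (+). CUC1 has its site at chr3:5111137-5111157 (+) and CUC2 at chr5:21902301-21902321 (−), both inside the coding sequence, starting at coding base 635 and coding base 773. Sequences are written as DNA, 5′ to 3′, with the seed of the microRNA (bases 2 to 8) and the stretch of the site that faces it in capitals.
ath-miR164a: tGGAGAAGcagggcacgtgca
ath-miR164c-5p: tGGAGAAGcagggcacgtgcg
CUC1 site: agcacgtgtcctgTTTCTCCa
CUC2 site: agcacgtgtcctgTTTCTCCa
The 2 sites were identical and differed from the full complement of miR164a by T1A, C9T and C14T, counted from the 5′ end of the site, so that 1 of the 3 differing letters faced the seed. In RNA, C9T and C14T are G:U pairs, and all differing letters were counted here as mismatches. The best stretch of CUC3 had 8 mismatches, and those of the other 7 members had 7 to 10. A search of 27437 coding sequences found stretches with at most 3 mismatches in 7 genes (0.0255%): NAC1, NAC080 and NAC100 with 2, and AT3G12977, CUC1, NAC6 and CUC2 with 3. The search covered coding sequence on the sense strand only, and a match describes letters and not a measured cut. The MIR164 genes themselves were not analysed here.

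None of the members overlaps another annotated gene. In the same assembly STM (AT1G62360) is at chr1:23058582-23062063 (−), KNAT1 (AT4G08150) at chr4:5147699-5151159 (−), KNAT2 (AT1G70510) at chr1:26576486-26582879 (+), KNAT6 (AT1G23380) at chr1:8297241-8302651 (−), CLV1 (AT1G75820) at chr1:28463344-28466971 (−), CLV3 (AT2G27250) at chr2:11664978-11665797 (−), WUS (AT2G17950) at chr2:7808871-7810811 (−), CUC1 (AT3G15170) at chr3:5109782-5111608 (+), CUC2 (AT5G53950) at chr5:21901704-21903854 (−) and CUC3 (AT1G76420) at chr1:28671806-28674045 (−). KNAT2 and KNAT6, the closest pair, shared an identical run of 41 coding bases, CUC1 and CUC3 one of 23 and CUC1 and CUC2 one of 22. Reads inside such runs could not be assigned to 1 of the pair, and how they were counted is not given in the sources used here.

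Libraries held 36324848 to 88844771 counted reads at 15 DAS and 40347313 to 256721442 at 28 DAS. Levels are given as CPM, counts per 1000000 of the effective library size, which is the total count multiplied by a TMM (trimmed mean of M values) factor found over all 64 libraries. This effective size was 1.15 to 1.3 times the total at 15 DAS and 0.672 to 0.870 times at 28 DAS, so the choice of scale matters when the ages are compared. A few libraries stood apart. Ler batch 2 pool D at 15 DAS had the fewest counts (36324848). It also had the highest share of counts from organelle genes (0.675%, against 0.0825% in pool C of that group). Of transcripts picked as present in C24 of batch 2 (at least 10 CPM) and nearly absent from Ler of batch 2 (at most 0.5% of that), the 11 followed here stood at a median of 37.4 and 17.2% of the C24 level in Ler batch 1 pools A and B at 15 DAS, and at 41.7 to 52.5% in the F1 hybrids at that age. Comparisons with those pools were run also with the smallest Ler seedlings (0.214 and 0.141%) in their place, a setting added after the data were seen. Pool B of C24 batch 1 and pool B of the smallest C24 seedlings differed by 1.97 times the counting noise, where the next closest pair of libraries differed by 4.44 times. One L4-2 pool titled 28 DAS has a tissue label of seedlings. It was grouped by title. Its STM level of 0.0338 CPM lay within the range of the other leaf pools, and it was the only leaf pool with a KNAT1 count of 0, the lowest of the others being at 0.0409 CPM.

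At 15 DAS every member was detected in all 36 libraries, at very unequal levels. Compared per kilobase of transcript, the median level of CLV1 was 20.6 CPM per kb, and it did not overlap the range of any other member. KNAT6 (4.32 CPM per kb), KNAT1 (4.18) and STM (3.35) followed with overlapping ranges, then CUC1 (2.75) and KNAT2 (2.44), which overlapped each other, STM, KNAT1 and KNAT6. CUC2 had a median of 0.901 CPM per kb, and its highest library (1.27) stayed under the lowest KNAT2 library (1.73). The range of CUC2 overlapped those of CLV3 and CUC3. CLV3 (0.512), CUC3 (0.386) and WUS (0.360) were the lowest and overlapped one another, and WUS was counted with 14 to 59 reads per library and CLV3 with 14 to 39. Across the 18 group means at 15 DAS the highest was 1.59 to 2.28 times the lowest for 9 of the 10 members, and 4.01 times for CUC3, from 0.295 CPM in L3-1 to 1.18 CPM in S2-1. The spread between the 2 pools of a group had a median coefficient of variation of 6.88% for CLV1 and 20.2% for CUC3.

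**Figure D1:**
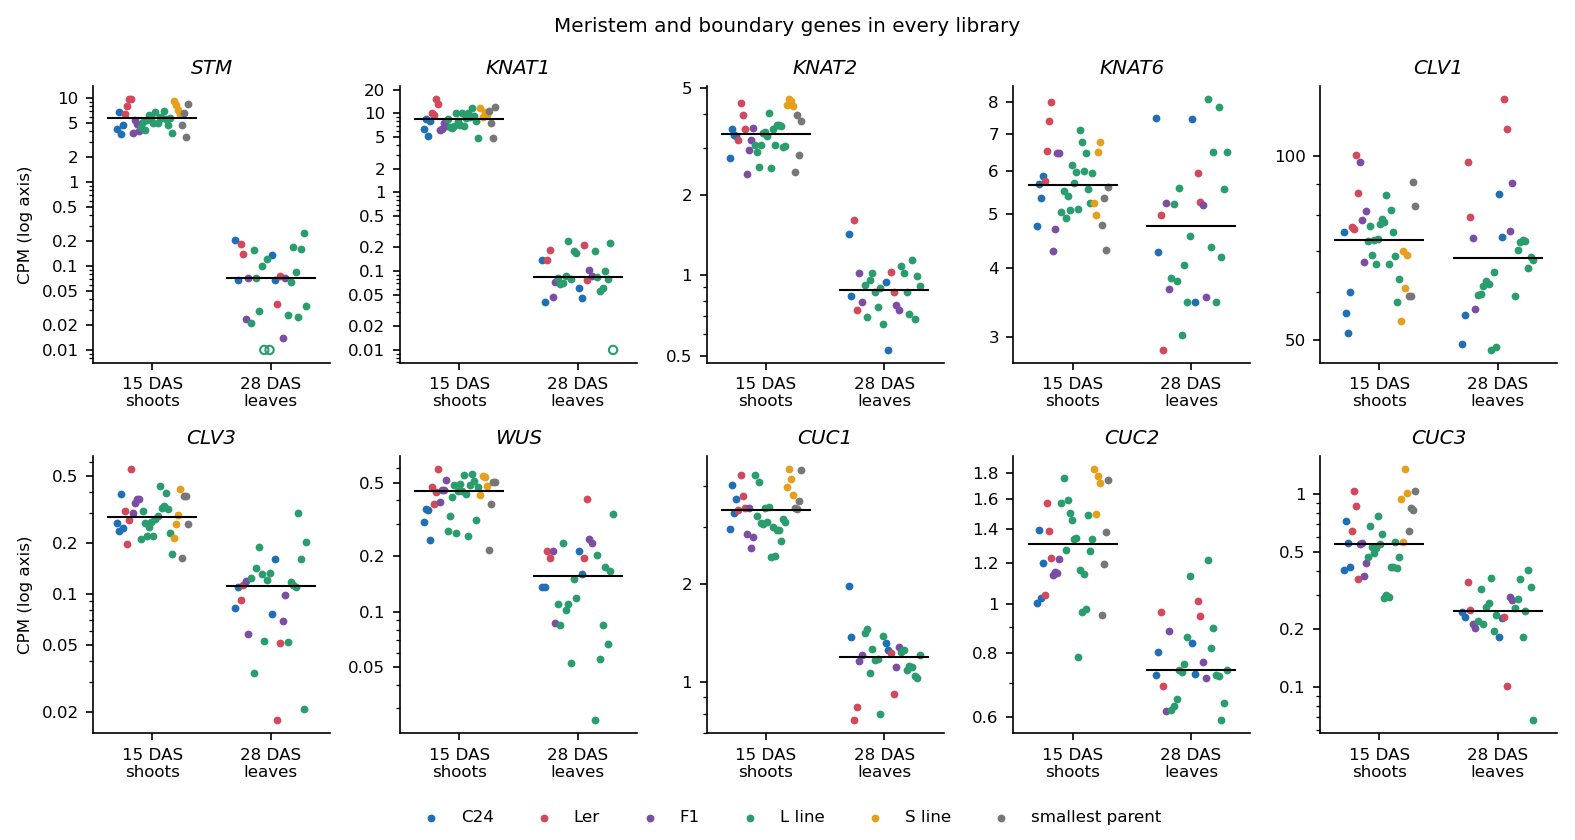
Level of each member in each library at 15 DAS (36 shoot libraries) and 28 DAS (28 leaf libraries), in CPM on a log axis with a scale of its own in each panel. Each point is a library coloured by kind of plant, the horizontal line is the median of the age, and open circles set at 0.01 CPM mark libraries with 0 reads. STM and KNAT1 fall by far the furthest from shoots to leaves, and the points of KNAT6 and CLV1 overlap.

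Of the 4 class I KNOX genes, 2 were found in leaves at about 1% of their shoot level. STM, which founds and maintains the shoot meristem, ranged from 3.40 to 9.84 CPM (median 5.70) in shoots and from 0 to 0.248 CPM (median 0.0711) in leaves, where it was counted with 0 to 15 reads. The leaf median was 1.25% of the shoot median, and no leaf library reached the lowest shoot library. KNAT1, also known as BREVIPEDICELLUS and active in the meristem and stem, ranged from 4.88 to 15.4 CPM (median 8.43) in shoots and from 0 to 0.241 CPM (median 0.0838) in leaves. Its leaf median was 0.994% of the shoot median, again without overlap. STM had 0 reads in 2 leaf libraries and KNAT1 in 1.

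The other 2 KNOX genes were kept in leaves to different degrees. KNAT2 ranged from 2.38 to 4.57 CPM (median 3.37) in shoots and from 0.525 to 1.60 CPM (median 0.880) in leaves, with no overlap. KNAT6, known for its part in the boundaries of the meristem, ranged from 4.29 to 8.01 CPM (median 5.64) in shoots and from 2.84 to 8.11 CPM (median 4.77) in leaves, and the ages overlapped. Per kilobase, KNAT6 (3.65 CPM per kb) was the only KNOX gene among the members above 1 CPM per kb at the median of the leaves, and KNAT2 stood at 0.638, STM at 0.0417 and KNAT1 at 0.0416.

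The stem-cell genes WUS and CLV3 were scarce in both organs, and the receptor gene CLV1 was not. WUS ranged from 0.216 to 0.592 CPM (median 0.450) in shoots and from 0.0258 to 0.408 CPM (median 0.155) in leaves. CLV3 ranged from 0.162 to 0.546 CPM (median 0.283) and from 0.0178 to 0.298 CPM (median 0.111), with 1 to 18 reads per leaf library. CLV1 ranged from 51.4 to 100.2 CPM (median 72.9) in shoots and from 48.2 to 124.1 CPM (median 68.0) in leaves. The ages overlapped for all 3 genes, and the CLV1 medians differed least.

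The boundary genes were lower in leaves but remained measurable. CUC1 ranged from 2.42 to 4.53 CPM (median 3.39) in shoots and from 0.763 to 1.97 CPM (median 1.20) in leaves, with no overlap. CUC2 ranged from 0.786 to 1.83 CPM (median 1.31) and from 0.591 to 1.22 CPM (median 0.742). CUC3 ranged from 0.290 to 1.35 CPM (median 0.555) and from 0.0675 to 0.403 CPM (median 0.247). The leaf median was 35.3% of the shoot median for CUC1, 44.6% for CUC3 and 56.8% for CUC2, so that the highest and the lowest share were those of the 2 genes with a miR164 site.

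In the edgeR quasi-likelihood fit of all libraries, which averaged the 14 groups sampled at both ages, 9 of the 10 members were called lower in leaves at a Benjamini-Hochberg adjusted p below 0.05. The background was high: 87.1% of the 30407 genes tested were called, 46.8% lower and 40.3% higher, and the median log2 difference over all genes was −0.079 against −1.45 over the members. The log2 difference was −6.32 ± 0.13 (SE) for KNAT1 and −6.10 ± 0.18 for STM, which ranked at place 515 and 588 from the lowest among all genes tested. It was −1.86 ± 0.08 for KNAT2 and −0.24 ± 0.09 for KNAT6, with an adjusted p of 0.0093. For CLV3 it was −1.52 ± 0.14 and for WUS −1.44 ± 0.12. CUC1 fell by 1.46 ± 0.05, CUC3 by 1.05 ± 0.11 and CUC2 by 0.69 ± 0.06 on the log2 scale. CLV1 was not called, at −0.08 ± 0.04 and an adjusted p of 0.077.

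The call for CLV1 depended on the scale. With library sizes in place of TMM, a setting added after the data were seen, the median of all genes moved to −0.75, CLV1 to −0.75, KNAT6 to −0.92 and STM to −6.77, and all 10 members were called lower, where 74.7% of all genes were called lower and 16.0% higher. CLV1 therefore lay at the median of all genes under both scales, with KNAT6 a little below it. With TMM, CLV1 was also called without Ler batch 1 at both ages (−0.10, adjusted p = 0.033), and when a single pool was left out: C24 batch 1 pool B, C24xLer pool B or L3-2 pool A at 15 DAS, or pool A of Ler batch 1, C24xLer, L2-1 or L2-2 at 28 DAS (−0.097 to −0.091).

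The 14 groups shared the fall of STM, KNAT1, KNAT2 and CUC1, each of which was called lower in 14 of 14 groups, where 30.2 to 34.6% of all genes were called lower and 25.3 to 27.3% higher. STM ranged over the groups from −7.49 in Ler batch 2 to −4.87 in L4-2, and KNAT1 from −7.32 in L3-2 to −5.56 in L4-2. KNAT2 ranged from −2.24 to −1.47. WUS was lower in 14 groups and called in 11, CLV3 in 14 and 10, CUC3 in 14 and 9, and CUC2 was lower in 13 and called in 9. Leaving out 1 pool lost the CLV3 call in C24 batches 1 and 2, Ler batch 1, C24xLer, L1-1, L2-1 and L3-2. The CUC3 call was lost in this way in C24 batches 1 and 2, Ler batch 2, C24xLer, L1-1, L1-2 and L2-1. WUS and CUC2 each lost the call in C24 batch 1, Ler batch 1, C24xLer and LerxC24, WUS also in L1-2 and CUC2 also in L4-1. The other way, a left-out pool made WUS called in Ler batch 2 and CLV3 and CUC3 called in L4-2. It also made KNAT6 called lower in Ler batch 1 (−1.11, without pool A at 28 DAS). CLV1 became called lower without pool B at 15 DAS in C24 batch 1 (−0.52), pool A at 28 DAS in L2-1 (−0.54) or pool B at 28 DAS in L3-1 (−0.48). With all pools KNAT6 was called in 0 of 14, with differences from −0.68 to 0.17. On the TMM scale CLV1 was called higher in leaves of C24 batch 2 (0.53 ± 0.16, adjusted p = 0.0057), where it stood at −0.23 and was not called with library sizes, and lower in C24xLer (−0.44 ± 0.16, adjusted p = 0.019) and L2-2 (−0.46 ± 0.16, adjusted p = 0.014). With library sizes CLV1 was called lower in 12 of 14 groups, KNAT6 in 10, CUC3 in 13 and each of the other 7 members in 14, where 53.4 to 63.9% of all genes were called lower. Each of the 3 CLV1 calls made with TMM and all pools was lost without either of 2 pools: pool C at 15 DAS (0.42) or 28 DAS (0.40) in C24 batch 2, pool A at 15 DAS (−0.28) or pool B at 28 DAS (−0.26) in C24xLer, and pool B at 15 DAS (−0.45) or 28 DAS (−0.27) in L2-2. Whether the groups differ in this change was tested only between the 2 parents within each batch, as given below, where CUC1 was called in batch 1.

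**Figure D2:**
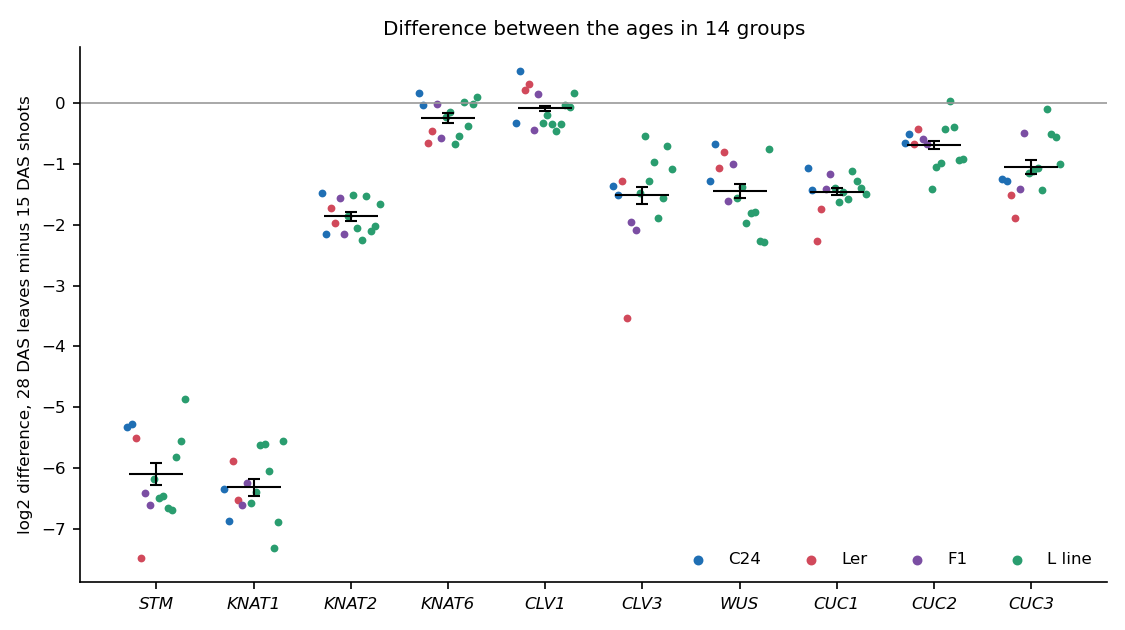
Log2 difference between 28 DAS leaves and 15 DAS shoots for each member. Points are the 14 groups sampled at both ages, coloured by kind of plant, and the black bar with whiskers is the fitted mean over the groups ± SE. STM and KNAT1 lie near −6 in most groups, and CLV1 and KNAT6 scatter around 0 on the TMM scale.

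Most genes that work with the members were also called between the organs, as were 87.1% of all genes tested. Of all genes, 46.8% were called lower and 40.3% higher with TMM, and 74.7% lower and 16.0% higher with library sizes. These shares are the background for the list counts in this and the next 2 paragraphs. Those counts are on the TMM scale unless library sizes are named. Of 13 other boundary and axillary meristem genes, 11 fell in leaves and 1 rose (median −0.67). The falls with the smallest adjusted p were those of LOB (−3.72 ± 0.10) and LOF1 (−3.59 ± 0.11), which mark organ boundaries, JLO (−2.14 ± 0.08) and LAS (−2.02 ± 0.09), which is needed for axillary meristems. With library sizes in place of TMM, 12 fell and 1 rose. Of 7 class II KNOX genes and BELL-type partners, 5 rose and 2 fell (median 0.44), against 1 and 5 with library sizes. The class II gene KNAT4, known to be expressed in differentiated organs, rose on both scales (1.05 ± 0.07, and 0.38 with library sizes), and PNF, a BELL partner of the KNOX proteins, fell on both (−0.65 ± 0.05 and −1.32). KNAT5 (0.44 ± 0.03) and ATH1 (0.67 ± 0.08) rose with TMM only, at −0.23 and −0.0059 with library sizes.

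Of 12 other CLAVATA-WUSCHEL signalling genes, 8 fell and 3 rose (median −0.26), against 11 and 0 with library sizes. BAM3, a receptor kinase related to CLV1, fell by 0.63 ± 0.06 and the phosphatase gene PLL1 by 0.47 ± 0.04, while the receptor kinase gene RPK2 (0.36 ± 0.04) and HAM3 (0.66 ± 0.07), a GRAS gene whose family works with WUS, rose with TMM but stood at −0.31 and −0.02 with library sizes. Of 13 genes known to repress KNOX or CUC genes in leaves, 8 fell and 2 rose (median −0.29), against 12 and 0 with library sizes. AS1, which keeps KNOX genes off in leaf primordia, fell by 1.38 ± 0.12, the YABBY genes FIL and YAB3 fell by 1.16 ± 0.06 and 0.72 ± 0.04, and TCP10 rose by 0.69 ± 0.05 with TMM and stood at 0.01 with library sizes. Of 5 hormone genes known as KNOX targets, 3 rose and 1 fell (median 0.30), against 0 and 4 with library sizes. The cytokinin synthesis gene IPT5 stood at 0.71 ± 0.08 with TMM and 0.031 with library sizes, and the gibberellin genes GA20OX1 and GA2OX2 at 0.34 ± 0.14 and 0.30 ± 0.13 with TMM and at −0.33 and −0.38 with library sizes. The gene that fell with TMM was GA2OX4, which encodes a gibberellin-inactivating enzyme: it was present at 0.0395 to 0.249 CPM in every shoot library and had 0 reads in all 28 leaf libraries.

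Other markers moved with the ages too. All 7 genes of dividing cells fell, and their summed level was 61.2 to 108.0 CPM in shoots and 23.2 to 42.9 CPM in leaves. All 7 root genes fell, from sums of 7.90 to 23.6 CPM to 2.70 to 6.56 CPM, and 6 of 8 flower-organ genes fell, while the sum of all 8 went from 9.67 to 47.4 CPM to 5.42 to 17.5 CPM. The other 2 rose on both scales, SEP1 by 1.29 ± 0.08 (0.62 with library sizes) and AG, named here after its values were seen, by 1.08 (0.41 with library sizes). Of 5 leaf mesophyll genes, 4 rose and 0 fell (3 and 1 with library sizes). None of these 27 markers was at 0 in any library, and their part in the results on the members was not tested. Age, organ and growth on plates or soil changed together and cannot be told apart. In pooled tissue, fewer cells of a type and less RNA per cell cannot be told apart either.

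Between the parents, meristem genes were higher in Ler shoots in batch 2. STM stood at 9.84 and 9.60 CPM in the Ler pools and at 3.76 and 4.77 CPM in the C24 pools. KNAT1 stood at 15.4 and 13.1 CPM against 5.11 and 8.03 CPM, KNAT6 at 7.40 and 8.01 CPM against 5.34 and 5.87 CPM, and CLV1 at 100.2 and 87.1 CPM against 51.4 and 59.9 CPM. In each of these 4 genes both Ler pools were above both C24 pools. The same order was found for KNAT2, WUS and CUC2, which were not called, and its share over all genes was not counted.

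These 4 of 10 members were called higher in Ler in batch 2, where 8.99% of all genes were called higher and 18.8% in either direction (edgeR, adjusted over 30207 genes). The log2 difference was 1.20 ± 0.32 for STM (adjusted p = 0.0106), 1.13 ± 0.32 for KNAT1 (0.0155), 0.47 ± 0.15 for KNAT6 (0.033) and 0.76 ± 0.15 for CLV1 (0.00115). The median over the members was 0.45 against 0.0004 over all genes. Without C24 pool C or without Ler pool C, STM, KNAT1 and KNAT6 were no longer called and CLV1 was, and the KNAT6 call was also lost without either other pool, with only these 4 libraries in the fit and with library sizes in place of TMM. KNAT2, CLV3, WUS and the 3 CUC genes were not called, with log2 differences from 0.05 ± 0.18 (CUC1) to 0.74 ± 0.33 (WUS).

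In batch 1 at the same age 0 of 10 members were called, where 6.58% of all genes were, and at an unadjusted p under 0.05 there were 0 as well. The differences there lay between 0.02 ± 0.36 (CLV3) and 0.56 ± 0.33 (CUC3), with a median of 0.26 over the members against −0.005 over all genes. STM stood at 6.47 and 8.02 CPM in Ler and 4.31 and 6.80 CPM in C24, a log2 difference of 0.39 ± 0.31, and CLV1 differed by 0.22 ± 0.15. With the smallest Ler seedlings in place of the Ler pools that carry C24-type transcripts, 0 members were called, STM differed by 0.10, KNAT1 by 0.20, KNAT6 by −0.08 and CLV1 by 0.41. The difference between the batches was itself tested and was called for 0 of 10 members (1.12% of all genes). It was 0.81 ± 0.44 for STM, 0.71 ± 0.44 for KNAT1, 0.23 ± 0.21 for KNAT6 and 0.53 ± 0.21 for CLV1, the one with an unadjusted p under 0.05. With the smallest Ler seedlings it was 1.095 for STM, 0.93 for KNAT1, 0.54 for KNAT6 and 0.35 for CLV1, and 0 members were called.

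**Figure D3:**
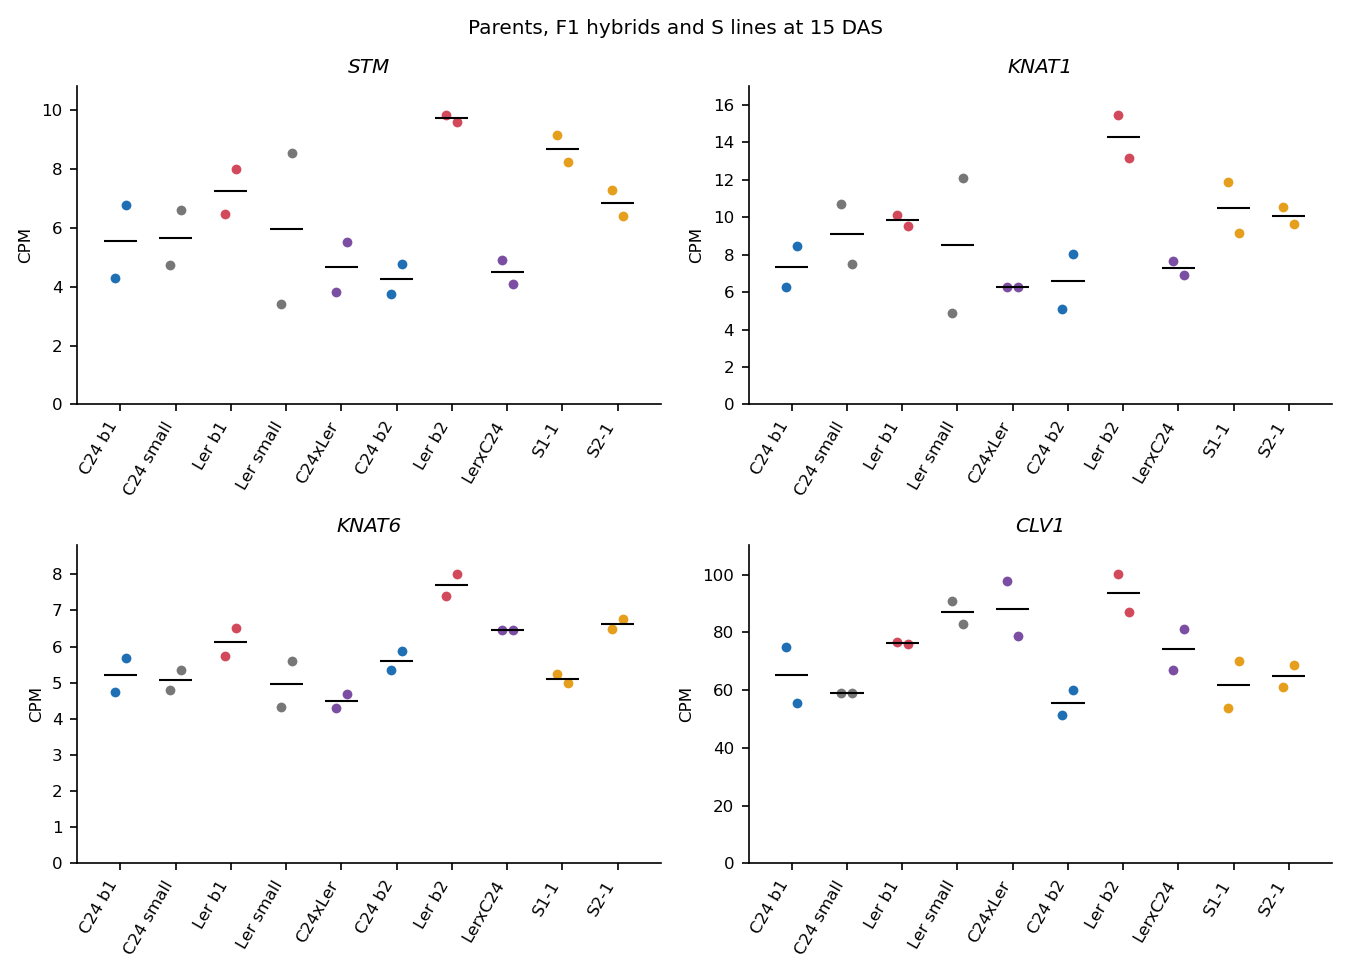
Levels of STM, KNAT1, KNAT6 and CLV1 at 15 DAS in CPM, on axes that start at 0, in the parents by batch (b1, b2), the smallest seedlings of each parent (small), the F1 hybrids and the S lines. Each point is a pool and the line is the mean of the 2 pools. Ler of batch 2 holds the highest mean in each panel.

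Other markers differed between the parents alongside these genes. In batch 2, 5 of 8 flower-organ genes were called higher in Ler, among them AP3 (2.57 ± 0.39), AP1 (2.18 ± 0.43), LFY (1.45 ± 0.27) and SEP1 (1.24 ± 0.23), and 0 lower. Their summed level was 24.5 and 25.4 CPM in the Ler pools and 11.8 and 11.5 CPM in the C24 pools. In batch 1, where Ler pools had 21.8 and 21.4 CPM against 14.1 and 12.2 CPM, 2 flower-organ genes were called higher. Of 7 genes of dividing cells, 5 were higher in Ler in batch 2, with sums of 108.0 and 85.7 CPM against 66.8 and 61.2 CPM, and 0 in batch 1, with 83.1 and 104.3 CPM against 83.0 and 95.2 CPM. The part of either marker group in the higher STM, KNAT1, KNAT6 and CLV1 levels was not tested.

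The partners of the members were called in both directions between the parents at 15 DAS in batch 2. The BELL gene PNY, whose protein pairs with STM and KNAT1, was higher in Ler (0.57 ± 0.14), and ATH1, another BELL gene, was lower (−1.23 ± 0.30), as it was in batch 1 (−1.07 ± 0.29). BOP2, which acts at leaf and floral boundaries, was higher (0.75 ± 0.14) and DRNL lower (−1.13 ± 0.32). CRN, a co-receptor of the CLAVATA pathway, was lower (−0.41 ± 0.14), the only call among 12 genes of that list. Of 13 repressors of KNOX or CUC genes, SAW1 (0.45 ± 0.14) and SAW2 (0.63 ± 0.18) were higher and TCP24 was lower (−0.52 ± 0.17).

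In leaves CLV1 was the member that differed between the parents in both batches. It stood at 97.8 and 79.3 CPM in Ler and 49.3 and 55.0 CPM in C24 in batch 1, and at 124.1 and 110.7 CPM in Ler and 86.7 and 73.6 CPM in C24 in batch 2. In both batches the Ler pools were above the C24 pools. The log2 difference was 0.76 ± 0.17 in batch 1 (adjusted p = 0.0059) and 0.57 ± 0.17 in batch 2 (adjusted p = 0.037). The background was 13.5% of 27844 genes in batch 1, 6.82% higher and 6.72% lower, and 13.1% in batch 2, 6.11% higher. The batch 1 call was lost without C24 pool A or Ler pool A, and the batch 2 call was lost when any 1 of its 4 pools was left out, with only these 4 libraries in the fit, and with library sizes in place of TMM. Of the 7 genes of dividing cells, 2 were also called higher in Ler leaves in each batch (KN and CYCB1;2), as was the flower-organ gene SEP1, and their part in the CLV1 difference was not tested.

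CUC1 was lower in Ler leaves in batch 1 and was the other member called there. It stood at 0.763 and 0.840 CPM in Ler and 1.97 and 1.38 CPM in C24, with 50 to 144 reads per library. The log2 difference was −1.06 ± 0.23 (adjusted p = 0.0042), and the call was lost without C24 pool A (−0.77, adjusted p = 0.094) and with only these libraries in the fit (adjusted p = 0.063). In batch 2 CUC1 stood at 1.23 and 0.919 CPM in Ler and 1.32 and 1.25 CPM in C24, a difference of −0.24 ± 0.24 that was not called. The change of the parental difference between the batches in leaves, a contrast added after the data were seen, was 0.82 ± 0.33 for CUC1 with an adjusted p of 0.90, and 0 of 10 members were called in it (0.0144% of all genes).

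**Figure D4:**
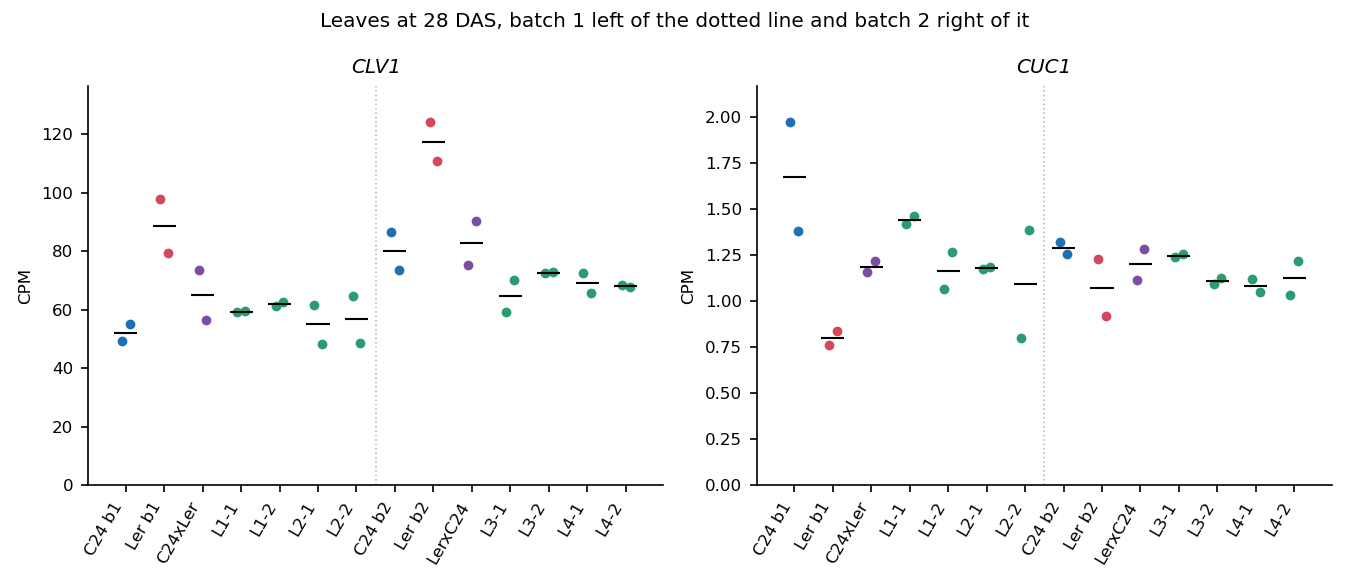
Levels of CLV1 and CUC1 in leaves at 28 DAS in CPM, on axes that start at 0, in the 14 groups. Each point is a pool, the line is the mean of the 2 pools, and the dotted line divides batch 1 from batch 2. Ler is above C24 for CLV1 in both batches, and Ler of batch 1 has the lowest mean for CUC1.

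The parental difference in CUC1 also changed between the ages in batch 1. At 15 DAS the batch 1 pools stood at 3.38 and 4.34 CPM in Ler and 2.96 and 4.04 CPM in C24. The change of the log2 difference from 15 to 28 DAS was −1.20 ± 0.28 (adjusted p = 0.0068), the only call among the members (5.78% of all genes, 3.3% in that direction), and it was −1.27 (adjusted p = 0.0048) with the smallest Ler seedlings in place of the Ler pools with C24-type transcripts. It was no longer called without C24 pool A at 15 DAS, without Ler pool B at 15 DAS or without C24 pool A at 28 DAS. In batch 2 the same change was −0.30 ± 0.29 and 0 of 10 members were called (3.92% of all genes).

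Among the listed genes in leaves, AS2, which acts with AS1 to keep KNOX genes off, was higher in Ler in batch 1 (1.01 ± 0.30), and the boundary genes LSH4 (−0.90 ± 0.24) and RAX2 (−0.90 ± 0.26) were lower. In batch 2, BOP2 (1.52 ± 0.24), PNY (1.06 ± 0.21), RAX3 (0.64 ± 0.19), BAM3 (0.83 ± 0.27) and PLL1 (0.60 ± 0.18) were higher and KNAT5 was lower (−0.54 ± 0.14). None of these was called in both batches in leaves, and the difference between the batches was called for 0 of the listed genes.

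Few members were called between the batches within a parent. At 15 DAS 0 of 10 were called in C24 (14.3% of all genes; 0 at an unadjusted p under 0.05) and 0 in Ler (18.5%; KNAT6 and CLV1 at an unadjusted p under 0.05). KNAT6 was 0.35 ± 0.15 higher in Ler of batch 2 and was called with a block for the pool letter (adjusted p = 0.0499) and with the smallest Ler seedlings as batch 1 (0.67, adjusted p = 0.0036). In leaves CLV1 was higher in batch 2 than in batch 1 of C24 (0.61 ± 0.17, adjusted p = 0.036; 8.39% of all genes, 4.26% higher), a call that was lost without any 1 of the 4 pools, with only these libraries in the fit, and with library sizes in place of TMM. In Ler the CLV1 difference was 0.42 ± 0.17 and 0 members were called (9.15%). Leaf mesophyll genes moved with the batch: 3 of 5 were called higher in batch 2 in C24 and 4 in Ler, with sums of 74380 and 63860 CPM in C24 of batch 2 against 31230 and 42530 CPM in C24 of batch 1. Their part in the CLV1 difference was not tested.

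In the F1 hybrids 0 of 10 members were called against the mid-parent in any of the 4 comparisons. The mid-parent was built in silico from equal parts of a C24 and a Ler library that shared batch and age. The background was low as well, at 0.209% of genes in C24xLer and 0.0166% in LerxC24 at 15 DAS, and 0.0144 and 0.0289% at 28 DAS. STM stood at 3.83 and 5.54 CPM in C24xLer and 4.92 and 4.10 CPM in LerxC24 at 15 DAS. Its log2 difference from the mid-parent was −0.45 ± 0.31 and −0.61 ± 0.31, and for KNAT1 it was −0.46 ± 0.30 and −0.50 ± 0.31. At an unadjusted p under 0.05 there were KNAT6 (−0.33 ± 0.15) and CLV1 (0.32 ± 0.14) in C24xLer and CUC1 (−0.38 ± 0.18) in LerxC24 at 15 DAS, and 0 members in either hybrid at 28 DAS. With the smallest Ler seedlings in the mid-parent, 0 members were called in C24xLer, and STM differed by −0.29, KNAT6 by −0.17 and CLV1 by 0.22.

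Set against each parent, 1 hybrid difference was called. LerxC24 was lower than Ler of batch 2 in STM at 15 DAS by a log2 difference of −1.10 ± 0.32, with an adjusted p of 0.0498 just inside the threshold (4.25% of all genes, 1.79% lower), and KNAT1 differed by −0.97 ± 0.32 (adjusted p = 0.091). The STM call was lost without any 1 of the 4 pools (adjusted p = 0.158 to 0.221), with no filter on low counts (0.052) and with library sizes (0.055), and KNAT1 was called with DESeq2 (0.043) and with only these libraries in the fit (0.044). Against C24 the same hybrid differed by 0.09 ± 0.32 in STM. These comparisons share the hybrid pools. In C24xLer at 15 DAS and in both hybrids at 28 DAS, 0 members were called against either parent, with backgrounds of 1.88 and 1.00% at 15 DAS and 1.76, 2.35, 3.92 and 1.80% at 28 DAS, and 0 in LerxC24 against C24 at 15 DAS (2.97%). With the smallest Ler seedlings in place of Ler, 0 members were called in C24xLer, with differences from −0.74 (CUC3) to 0.03 (CLV1).

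**Figure D5:**
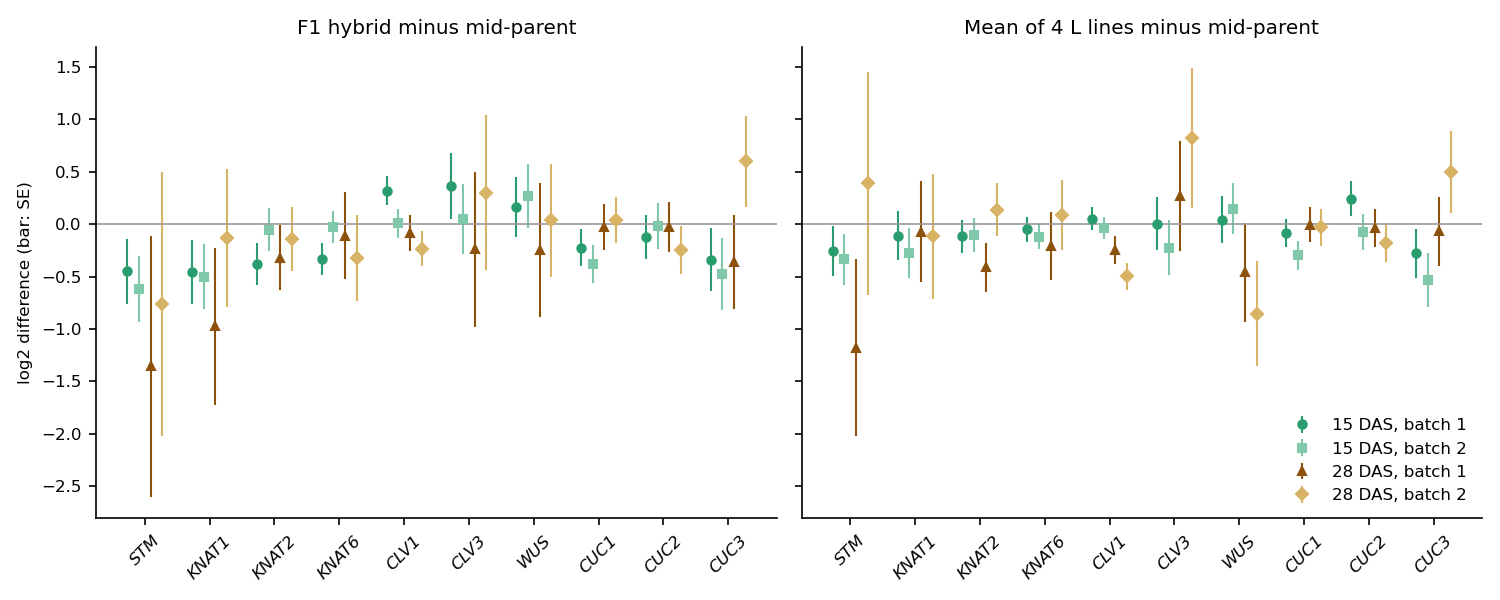
Log2 difference from the mid-parent for the F1 hybrids and for the mean of 4 L lines, by member, age and batch. Symbols are the fitted differences and bars are ± SE. No member was called in the 8 comparisons in edgeR with the in silico mid-parent. The bars of STM, KNAT1, CLV3 and WUS at 28 DAS are wide because those genes had few reads in leaves.

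In the hybrid mimic lines no member was called against the in silico mid-parent in edgeR. Averaged over the 4 lines of a batch, 0 of 10 members were called at 15 DAS (1.34% of genes in batch 1 and 1.96% in batch 2) or at 28 DAS (0.779 and 1.35%). The 15 DAS differences lay between −0.28 ± 0.23 (CUC3) and 0.24 ± 0.17 (CUC2) in batch 1, and between −0.53 ± 0.26 (CUC3) and 0.15 ± 0.24 (WUS) in batch 2. At 28 DAS they were wider, between −1.18 ± 0.84 (STM) and 0.27 ± 0.52 (CLV3) in batch 1, and between −0.86 ± 0.50 (WUS) and 0.82 ± 0.66 (CLV3) in batch 2. With the smallest Ler seedlings in the batch 1 mid-parent at 15 DAS the differences lay between −0.36 (CUC3) and 0.11 (KNAT6), and 0 were called. STM lay between 4.15 and 6.79 CPM in the 8 pools of batch 1 lines and between 3.84 and 7.09 CPM in the 8 pools of batch 2 lines.

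The nearest to a call was CLV1 in batch 2 leaves. The 8 pools of the lines L3 and L4 stood between 59.1 and 72.9 CPM, below all 4 parental pools of the batch (73.6 to 124.1 CPM) and below both LerxC24 pools (75.5 and 90.4 CPM). The highest line pool was close to the lowest parental pool, and the share of all genes with such an order was not counted. The log2 difference from the in silico mid-parent was −0.50 ± 0.13 with an adjusted p of 0.087 in edgeR. It was called with DESeq2 (−0.50, adjusted p = 0.022) and also in edgeR where the mid-parent was a mean of log2 levels (−0.49, adjusted p = 0.012). The 4 lines differed by −0.58 ± 0.17 (L3-1), −0.43 ± 0.17 (L3-2), −0.49 ± 0.17 (L4-1) and −0.49 ± 0.17 (L4-2), and none was called alone in edgeR (1.47, 0.884, 0.566 and 1.05% of all genes), while L3-1 was called with DESeq2 (adjusted p = 0.043). Other markers moved in the same comparison: 1 of 8 flower-organ genes was called higher, AG (1.87 ± 0.29), with 3.49 to 7.05 CPM in the line pools and 1.255 to 1.47 CPM in the parental pools, and 1 of 7 root genes was called lower, NRT2.1 (−1.10 ± 0.24). The summed flower-organ level was 12.6 to 17.5 CPM in the line pools and 6.64 to 10.3 CPM in the parental pools, and the part of these markers in the CLV1 difference was not tested. In batch 1 leaves the difference was −0.25 ± 0.13.

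In the S lines, which were sampled in shoots only, 0 of 10 members were called against the batch 1 mid-parent, with 3.17% of genes called in S1-1 and 2.63% in S2-1. STM stood at 9.14 and 8.24 CPM in S1-1 and 7.28 and 6.4 CPM in S2-1, which gave log2 differences of 0.43 ± 0.31 and 0.10 ± 0.31. CUC3 stood at 1.35 and 1.02 CPM in S2-1, a difference of 0.76 ± 0.29 (adjusted p = 0.21), and CUC2 at 1.78 and 1.72 CPM, a difference of 0.49 ± 0.21 (adjusted p = 0.28). With the smallest Ler seedlings in the mid-parent, 0 members were called, and the S1-1 difference in STM was 0.59. Flower-organ genes were called higher in S1-1 (4 of 8, with sums of 47.4 and 42.8 CPM) and in S2-1 (2 of 8, with 30.4 and 26.2 CPM). An S line was grown with batch 1 under a name that matches neither S1-1 nor S2-1 in full, so batch and line cannot be told apart. The authors' normalised scores list both S lines with the batch 1 groups, which does not state the batch they were grown in.

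Differences between the smallest seedlings and the other pools were not detectable for the members at this replication. The 5 smallest C24 seedlings differed from C24 batch 1 in 0 of 10 members and in 0% of all genes (edgeR), and at an unadjusted p under 0.05 in 0 members and 450 genes. Their differences were −0.17 ± 0.31 to 0.39 ± 0.34. Without the near-identical pools of the 2 groups 0 members were called, and KNAT1 differed by 0.76. The smallest Ler seedlings differed from Ler batch 1 in 0 of 10 members (1.3% of all genes), with differences of −0.31 ± 0.15 (KNAT6) to 0.33 ± 0.35 (CLV3). As the Ler batch 1 pools hold C24-type transcripts, seedling size and that content cannot be told apart there. The 2 pools of smallest Ler seedlings were far apart in STM (3.40 and 8.55 CPM) and KNAT1 (4.88 and 12.1 CPM).

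The genes whose pattern was most like that of STM were sought among 23191 genes with at least 1 CPM, by Pearson correlation over the 18 group means of log2 CPM at 15 DAS. They were FLR1 (r = 0.93), THI2.1 (0.91), KNAT1 (0.88), SPL8 (0.86) and AT1G75000 (0.85), while KNAT2 had 0.71, KNAT6 0.49, CUC1 0.41, CUC2 0.29 and CLV1 0.23. For CUC2 they were AT4G10201 (0.88), SWEET3 (0.87), AT5G56420 (0.87), AT5G53240 (0.86) and AT4G10600 (0.86), with CUC1 at 0.74. These values describe 18 means that share batches, parents and depth.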

How the data were processed

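RNA counts per gene of 64 libraries were used as deposited. Reads were checked with FastQC and analysed against TAIR10, per the submitters' processing notes, and the authors deposited raw counts, while no source used here names the aligner, the counter or the handling of strand. The authors' normalised tables hold a score that is proportional to the counts (64 of 64 columns matched by name) and were used only to check columns, and a combined table was not used because its column names disagree with the others. Per the labels, one L4-2 pool has conflicting ages.

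Counts were filtered with filterByExpr by group (minimum count 10), scaled by TMM and tested with quasi-likelihood F tests in edgeR 4.0.16 (limma 3.58.1, R 4.3.3), 2-sided, with all groups of an age in 1 fit (30207 genes at 15 DAS, 27844 at 28 DAS), mid-parent libraries in place of the parents (30129 and 27720), or both ages together (30407). The p-values were Benjamini-Hochberg adjusted over all genes tested and called below 0.05. SE is the log2 difference over the root of F. Mid-parents averaged a C24 and a Ler library of the same letter, or their order in letters, after scaling to equal effective size. Levels in the text use the joint scaling. Alternatives were DESeq2 1.42.0, its size factors, no filter, only the groups compared, a replicate block, other mid-parents and each library left out, and those added after the data were seen are named as such. The method was tested on simulated data.

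The 10 members, the gene lists and the tests were chosen with earlier results of these data known. The 10 members are always named. Of each list up to 4 called genes with the smallest adjusted p are named. Annotation and sequences came from RefSeq's TAIR10.1 and were matched by gene ID for all members and list genes, and a stretch with up to 3 mismatches to the complement of miR164 was counted as a site. The libraries' 36324848 to 256721442 counts limit the precision for genes with few reads, most of all STM, KNAT1, CLV3 and WUS in leaves.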

Additional observations from a re-analysis of the deposited data

Results flagged for a closer look

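The parental difference in CUC1 changed between the ages in batch 1, by −1.20 ± 0.28 on the log2 scale (edgeR, adjusted p = 0.0068), by the test of that change itself. CUC1 stood at 3.38 and 4.34 CPM in Ler and 2.96 and 4.04 CPM in C24 shoots, and at 0.763 and 0.840 CPM in Ler and 1.97 and 1.38 CPM in C24 leaves. In batch 2 the same change was −0.30 ± 0.29 and was not called. Whether the 2 batches differ in this change was not tested.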

How the results depend on the processing

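The counts of called members were recomputed under each alternative, and for single lines and single groups the members' values were. For Ler against C24 at 15 DAS in batch 2 the count of 4 was 1 to 3 with a library left out. At 28 DAS it was 2 in batch 1 and became 1 with only the groups compared and 0 to 2 with a library left out, and in batch 2 it was 1 and became 0 with only the groups compared, 0 with library sizes in place of TMM and 0 with any library left out. For batch 2 against batch 1 in C24 leaves the count of 1 became 0 under those same settings. For batch 2 against batch 1 in Ler at 15 DAS the count of 0 became 1 (KNAT6) with the replicate block and 1 where the smallest Ler seedlings stood in for Ler batch 1. For the L lines against the mid-parent at 28 DAS in batch 2 the count of 0 became 1 (CLV1) with DESeq2 and 1 where the mid-parent was a mean of log2 levels. For the change of the parental difference between the ages in batch 1 the count of 1 was 0 to 1 with a library left out. For LerxC24 against Ler at 15 DAS the count of 1 became 2 with DESeq2 and 2 with only the groups compared, and 0 with no filter, 0 with library sizes and 0 with any library left out. Between the ages in single groups, library sizes turned the direction of CLV1 in C24 batch 2 (−0.23), Ler batch 2 (−0.44), LerxC24 (−0.57) and L4-2 (−0.53), and of KNAT6 (−0.79) and CUC2 (−0.77) in L3-1. The cause of these changes was not tested. Leaving out a pool leaves 1 pool in its group, assumed to vary like the others, and the fits of only the groups compared hold fewer samples. Among the values of single members under all alternatives, 7252 kept their side of the threshold and the direction of any call, 88 were no longer called, 54 became called and 6 reversed. For the hybrids against each parent, single L lines and single groups between the ages these alternatives were added after the data were seen, and library sizes were not tried against the mid-parent.

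Pools with the same letter deviated together to different degrees. The median correlation between groups of the difference of their 2 pools was 0.35 and 0.18 in batches 1 and 2 at 15 DAS and 0.26 and 0.63 at 28 DAS. With 2 letters per batch and no statement of shared growth this is a hint from the data only, and the block changed no count of called members besides that of KNAT6 above. Leaf levels of STM and KNAT1 rest on 0 to 22 reads, where counting error is large.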

Other observations

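At 15 DAS in batch 1 the pools lettered B tended to hold more of several members than the pools lettered A. Pool B was the higher one in 9 of 9 groups for KNAT6, in 8 of 9 for STM, KNAT2, CUC2 and CUC3, and in 5 of 9 for KNAT1, CLV1 and CLV3. In batch 2 at the same age the second pool was higher in 6 of 7 groups for CUC2 and in 5 of 7 for CLV1 and CUC3. It was higher there in 4 of 7 for KNAT2, KNAT6, WUS and CUC1, in 3 for STM and CLV3 and in 2 for KNAT1. In batch 2 leaves the order of KNAT6 was the other way, with the first pool higher in 6 of 7 groups (for example 7.45 against 3.47 CPM in C24 and 8.11 against 4.36 CPM in L3-1), and L4-2, at 5.56 and 6.48 CPM, was the exception. In those leaves the first pool was also higher in 7 of 7 groups for KNAT2 and in 6 of 7 for KNAT1 and CUC2. For the remaining members it was higher in 2 to 4 of 7. These counts were chosen after the values were seen and were not tested.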
